A study of Gallus gallus with 8 samples.

Results

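Whole retina of chicken (Gallus gallus) embryos at embryonic day 16 (E16) was set against whole retina at embryonic day 8 (E8), with 4 of the 8 RNA-seq libraries of the series. The libraries were chosen by the age and tissue in their labels, and the genes by having reads in at least 1 of the 4 libraries. That gave 14511 of the 16700 rows of the gene table. The last rows of the table, which belong to chromosome Z, and the 16 rows just before them were kept apart, since they may differ with the sex of the embryos. Of those rows 722 and 10 had reads, which left 13779 genes with reads for the main description.

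The E16 group was 2 untreated retinas and the E8 group was 2 untreated retinas, all from commercial Cobb/Hubbard F1 hybrid embryos kept under normal incubation, and the study calls them biological duplicates. The pigment epithelium was loosened and taken off before RNA was extracted, so each library holds all cell types of the neural retina mixed, in unknown proportions. Poly(A) RNA was sequenced from stranded TruSeq libraries. The sex of the embryos is not given in the sources used here. The other 4 libraries, from E18 retina and E18 cornea, entered the statistical fit to share 1 estimate of the spread.

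In the embryonic retina, multipotent precursor cells divide at the outer surface of the tissue and leave the cell cycle in an overlapping order as ganglion, horizontal, cone and amacrine cells and, later, rods, bipolar cells and Müller glia. Notch signalling, by which a cell that starts to become a neuron holds its neighbours in the precursor state, sets the pace of that exit. Neurons that have left the cycle then build axons, synapses and, in photoreceptors, outer segments, which hold the visual pigments and the enzymes that turn light into an electrical signal.

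Each value below is a normalized count, which is the number of reads on a gene divided by a size factor for the library. The reads on genes came to 23564482 and 29827992 in the E16 retinas, against 45670254 and 27107459 in the E8 retinas. Fold changes are E16 over E8 on the log2(normalized count + 1) scale, on which changes of low genes come out too small, and the value after ± is the standard error of the limma fit. A gene was called when its Benjamini-Hochberg adjusted p from limma, over the 13194 genes tested, was under 0.05. Where a list holds genes at or under 3 reads in both libraries of an age, its median is given a second time with those genes at their bounds if that changed it. Levels of different genes are not compared, because the values are not scaled by gene length. In such mixed tissue, fewer cells of a type and less RNA per cell cannot be told apart. With 2 retinas per age, the p-values rest on a spread that limma pooled over genes and over the 4 groups of libraries. Replicates differed over 2-fold for 4.30% of the tested genes at E16 and for 7.34% at E8, so the E8 retinas were the more variable.

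Of the 12543 genes tested outside the rows kept apart, 4353 were called higher in E16 retina, which is 34.7%, and 3666 were called lower, which is 29.2%. The median over all these genes was 0.07 on the log2 scale. At least 4-fold changes were called higher for 1721 genes, or 13.7%, and lower for 600 genes, or 4.78%. Over 32-fold changes were called higher for 243 genes and lower for 96 genes. The 1721 genes took 9.90% and 9.97% of the reads of the E16 retinas, against 0.859% and 1.07% of those of the E8 retinas. The 600 genes took 0.851% and 0.832% of the reads of the E16 retinas, against 8.002% and 6.97% of those of the E8 retinas. Among the 12 largest called rises of named genes with at least 10 CPM at their higher age were GUCA1A, ARR3, LACTBL1, TULP1, TMEM244, PRA1, FAM196B, CLUL1, PRPH2, SEMA3E and PDC. The 12 largest called falls were E2F1, CENPE, FOXN4, EXO1, NEK2, PIF1, BUB1, CENPF, RRM2, CDCA3, SGOL1 and PLK1. Most of the falls are genes of DNA replication and cell division, and most of the rises with a known role are photoreceptor genes. A stretch of 1155 consecutive rows, of which 1153 are listed at 0 in every library, holds GNAT2, HMGA1, DNMT1, SV2A, NEUROD4 and OLIG2, and no level of those genes is taken from it.

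**Figure D1:**
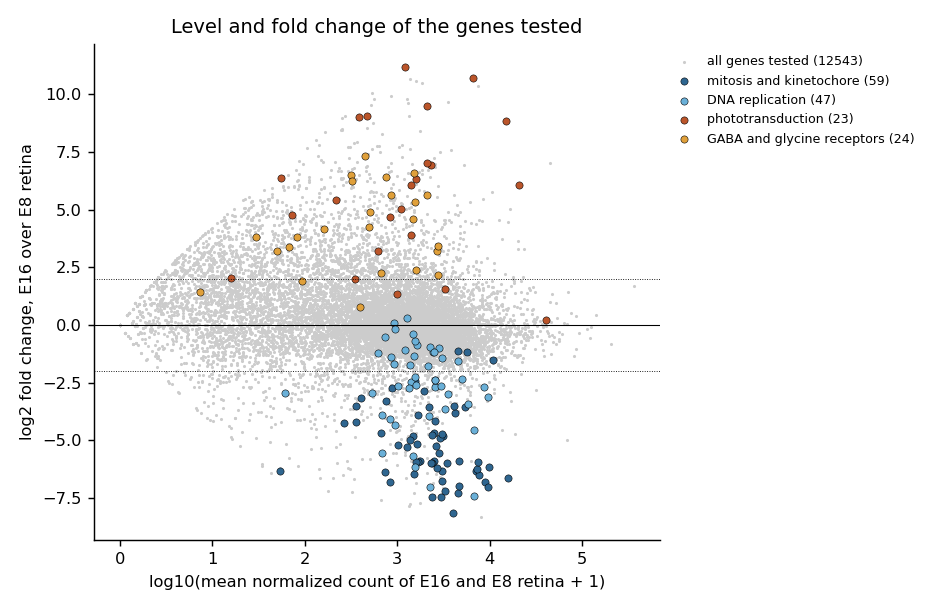
Each point is 1 of the 12543 genes tested, with the mean normalized count of E16 and E8 retina on a log10 axis across and the log2 fold change of E16 over E8 retina upward; dotted lines mark 4-fold changes. All 59 mitosis genes lie below 0 and 56 of them below the lower dotted line, while 19 of the 23 phototransduction genes and 21 of the 24 GABA and glycine receptor genes lie above the upper dotted line among the called genes.

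Genes of mitosis fell as a block. All 59 tested genes of the mitosis and kinetochore list were called lower in E16 retina, 56 of them at least 4-fold, with a median log2 fold change of -5.57, or -5.30 with 1 gene of 3 or fewer reads at E16 placed at its bound. MKI67, the proliferation antigen Ki-67, had 295 and 243 normalized counts in the E16 retinas, against 22445 and 16435 in the E8 retinas, a log2 fold change of -6.16 ± 0.18. TOP2A, the topoisomerase that untangles sister chromatids, had 331 and 288 in the E16 retinas, against 33416 and 28736 in the E8 retinas, a log2 fold change of -6.65 ± 0.19. CDK1, the kinase that starts mitosis, had 165 and 176 in the E16 retinas, against 14818 and 13118 in the E8 retinas, a log2 fold change of -6.35 ± 0.14. For each of these genes both E8 retinas stood far above both E16 retinas. PLK1, a mitotic kinase of the spindle poles, had 54.7 and 58.8 in the E16 retinas, against 10115 and 7968 in the E8 retinas, a log2 fold change of -7.28 ± 0.20. CENPE, a kinetochore motor, had 34.7 and 19.6 in the E16 retinas, against 9593 and 6355 in the E8 retinas, a log2 fold change of -8.17 ± 0.35. BUB1, a kinase of the spindle checkpoint, had 35.7 and 27.8 in the E16 retinas, against 6429 and 5253 in the E8 retinas, a log2 fold change of -7.48 ± 0.38. CENPA, the histone variant that marks centromeres, had 0 and 1 read in the E16 retinas, and its E8 level of 115 and 99.0 normalized counts was 233 times that of E16, with a 95% Poisson counting interval of 41.7 to 9186. The adjusted p-values of the fitted genes named here, from limma with Benjamini-Hochberg adjustment, ran from 2.91e-08 for CDK1 to 8.15e-07 for BUB1. No gene of this list had groups that overlapped, but the same held for 82.9% of all genes.

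DNA replication genes were lower as well, though less deeply. Of 47 tested genes, 44 were called lower, 27 of them at least 4-fold, and 0 were called higher, with a median of -2.39. MCM2, a subunit of the replicative helicase, had 517 and 600 in the E16 retinas, against 12333 and 13728 in the E8 retinas, a log2 fold change of -4.54 ± 0.13. CDC45, which activates that helicase, had 30.5 and 33.5 in the E16 retinas, against 5785 and 3133 in the E8 retinas, a log2 fold change of -7.01 ± 0.30. RRM2, the small subunit of the enzyme that makes deoxyribonucleotides, had 82.0 and 74.4 in the E16 retinas, against 15683 and 11492 in the E8 retinas, a log2 fold change of -7.41 ± 0.18. PCNA, the sliding clamp of DNA polymerase, fell less. It had 2230 and 2333 in the E16 retinas, against 17673 and 12216 in the E8 retinas, a log2 fold change of -2.69 ± 0.17. TYMS, thymidylate synthase, had 1548 and 1532 in the E16 retinas, against 3812 and 3079 in the E8 retinas, a log2 fold change of -1.15 ± 0.14, the smallest of those named. The adjusted p-values of these 5 genes ran from 3.64e-08 for RRM2 to 0.000145 for TYMS by limma.

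Among DNA damage repair and checkpoint genes 28 of 31 were called lower, 14 at least 4-fold, and 1 was called higher, with a median of -1.61. EXO1, an exonuclease of mismatch repair and recombination, had 12.6 and 10.6 in the E16 retinas, against 2933 and 2500 in the E8 retinas, a log2 fold change of -7.75 ± 0.25. BRCA1, which acts in repair by homologous recombination, had 57.8 and 85.0 in the E16 retinas, against 5693 and 4528 in the E8 retinas, a log2 fold change of -6.16 ± 0.23. Nucleotide and one-carbon synthesis genes had 13 of 20 called lower, 5 at least 4-fold, and 0 higher. Their median was -0.97, so the list as a whole moved less than replication and mitosis.

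Regulators of the step from G1 to S phase held genes that fell steeply and genes that were not called. Of 33 tested, 25 were called lower, 12 at least 4-fold, and 0 higher, with a median of -1.53. E2F1, a transcription factor that drives S phase genes, had the largest fall of all named genes outside the rows kept apart, with 44.1 and 52.3 in the E16 retinas, against 14447 and 17450 in the E8 retinas, a log2 fold change of -8.34 ± 0.28. E2F8, a repressor of the same family, had 39.9 and 40.0 in the E16 retinas, against 5245 and 4346 in the E8 retinas, a log2 fold change of -6.86 ± 0.23. MYBL1, a MYB family transcription factor, had 58.9 and 58.8 in the E16 retinas, against 5918 and 5607 in the E8 retinas, a log2 fold change of -6.59 ± 0.25. The falls of these 3 genes were as large as those of the mitotic genes, and both E8 retinas stood above both E16 retinas. CCND1, the cyclin that carries growth signals into the cycle, fell less, with 417 and 355 in the E16 retinas, against 4220 and 3666 in the E8 retinas, a log2 fold change of -3.35 ± 0.21. CDKN2C, an inhibitor of the cyclin D kinases, was lower at E16 too, with 14.7 and 9.80 in the E16 retinas, against 448 and 482 in the E8 retinas, a log2 fold change of -5.16 ± 0.33. CDKN1B, the inhibitor p27 linked to cell cycle exit, had 4337 and 4264 in the E16 retinas, against 4190 and 4229 in the E8 retinas. Its log2 fold change of 0.03 ± 0.10 was not called (limma adjusted p = 0.814). Apart from the genes that the naming rule gave, CDKN1B, CDKN2C, CENPA, EZH2, PDE6H, PDE6C, CNGB3, SAG, GUCA1C, IMPG1, GRIN1, GLRA3 and GABRR2 were named after their values were seen.

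Transcription factors of the eye field and of precursors were lower in 9 of 15 tested genes, 2 of them at least 4-fold, and higher in 0, with a median of -1.03. SOX9, a factor of precursors and later of Müller glia, had 571 and 547 in the E16 retinas, against 5434 and 4221 in the E8 retinas, a log2 fold change of -3.10 ± 0.17. NR2E1, an orphan nuclear receptor of neural precursors, had 781 and 853 in the E16 retinas, against 5037 and 3781 in the E8 retinas, a log2 fold change of -2.42 ± 0.35. SIX6, a homeobox factor of the eye field, had 6097 and 5931 in the E16 retinas, against 10303 and 12143 in the E8 retinas, a log2 fold change of -0.90 ± 0.20. OTX2, which photoreceptor and bipolar precursors share, had 16135 and 14795 in the E16 retinas, against 13608 and 21678 in the E8 retinas, where the E16 values lay between those of the E8 retinas (limma adjusted p = 0.853).

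Factors that drive neuron birth were called in both directions. Of 9 tested proneural and neurogenic factors, 4 were called lower, all of them at least 4-fold, and 3 were called higher, 2 of them at least 4-fold. Those shares were 44.4% lower and 33.3% higher, against 29.2% and 34.7% over all genes. The share called higher was thus near that of all genes. FOXN4, which primes precursors for amacrine and horizontal fates, had 9.46 and 11.4 in the E16 retinas, against 2829 and 2445 in the E8 retinas, a log2 fold change of -7.85 ± 0.66. PTF1A, its partner in those fates, had 4.20 and 2.45 in the E16 retinas, against 603 and 673 in the E8 retinas, a log2 fold change of -7.23 ± 0.52. It is counted with the amacrine and horizontal cell factors below, not in the proneural list. HES6, a neurogenic factor related to the Notch effectors, had 78.8 and 66.998 in the E16 retinas, against 5232 and 3018 in the E8 retinas, a log2 fold change of -5.75 ± 0.40. All E8 values of FOXN4, PTF1A and HES6 were above all E16 values, but 82.9% of all genes had no overlap between the ages. ATOH7, the factor needed for ganglion cells, had 539 and 849 in the E16 retinas, against 10560 and 2483 in the E8 retinas, and the E8 retinas differed from each other more than 4-fold. Its log2 fold change was -2.92 ± 0.59 (limma adjusted p = 0.00231). BHLHE23, a basic helix-loop-helix factor, rose, with 907 and 709 in the E16 retinas, against 75.6 and 111 in the E8 retinas, a log2 fold change of 3.12 ± 0.35. NEUROD6, a factor of postmitotic neurons, had 867 and 1065 in the E16 retinas, against 112 and 326 in the E8 retinas, a log2 fold change of 2.32 ± 0.68 (limma adjusted p = 0.0155). Its call was lost without E16 replicate 1 (limma adjusted p = 0.0532), without E16 replicate 2 (0.0810) and without E8 replicate 1 (0.128). Leaving out E8 replicate 1 gave NEUROD6 1.56 and ATOH7 -1.87 on the log2 scale, and leaving out E8 replicate 2 gave 3.08 and -3.96. NEUROD1 had 3092 and 2186 in the E16 retinas, against 2682 and 3238 in the E8 retinas, which overlapped and were not called.

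Notch pathway genes moved in both directions, with more of them lower. Of 30 tested genes, 15 were called lower, 7 at least 4-fold, and 7 were called higher, 2 at least 4-fold, with a median of -0.44. Those shares were 50% lower and 23.3% higher, against 29.2% and 34.7% over all genes. NOTCH1, the receptor, had 1080 and 1141 in the E16 retinas, against 23583 and 28132 in the E8 retinas, a log2 fold change of -4.54 ± 0.14. DLL1, a ligand on newborn neurons, had 328 and 276 in the E16 retinas, against 5984 and 5519 in the E8 retinas, a log2 fold change of -4.25 ± 0.18. DLL4, another ligand, had 87.2 and 76.0 in the E16 retinas, against 2320 and 2621 in the E8 retinas, a log2 fold change of -4.90 ± 0.22. These 3 genes showed a narrow spread between replicates at both ages. HES5, a repressor switched on by Notch, had 1444 and 1432 in the E16 retinas, against 11434 and 6877 in the E8 retinas, a log2 fold change of -2.62 ± 0.27. DTX1, a ubiquitin ligase that modulates the receptor, went the other way, with 738 and 676 in the E16 retinas, against 62.1 and 58.8 in the E8 retinas, a log2 fold change of 3.52 ± 0.29. DLK1, an atypical ligand, had 358 and 289 in the E16 retinas, against 17.6 and 15.7 in the E8 retinas, a log2 fold change of 4.20 ± 0.27.

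**Figure D2:**
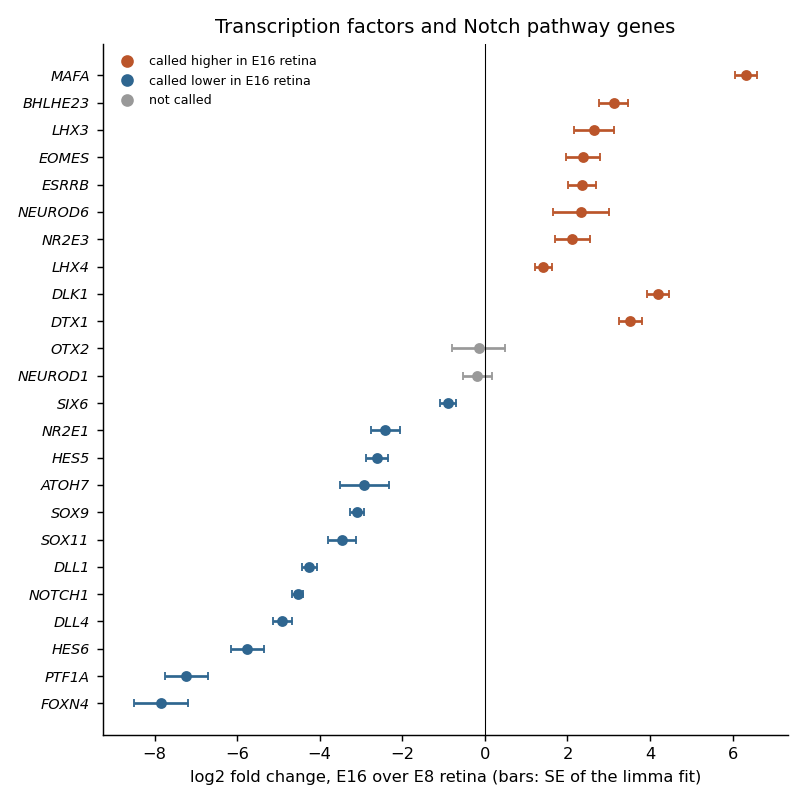
Log2 fold change of E16 over E8 retina, with the standard error of the limma fit, for 24 transcription factors and Notch pathway genes. MAFA at 6.33 and FOXN4 at -7.85 mark the ends, and OTX2 and NEUROD1, in grey, were not called.

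Among secreted signals, the Hedgehog list was the least mixed. Of 10 tested genes, 8 were called lower, 3 at least 4-fold, and 0 higher, with a median of -1.25. SHH, the ligand made by ganglion cells, had 124 and 136 in the E16 retinas, against 337 and 276 in the E8 retinas, a log2 fold change of -1.22 ± 0.32, whose call was lost without E16 replicate 1 (limma adjusted p = 0.0537). HHIP, a feedback inhibitor that the pathway switches on, had 23.1 and 27.0 in the E16 retinas, against 342 and 424 in the E8 retinas, a log2 fold change of -3.88 ± 0.27. GLI3, a transcription factor of the pathway, had 110 and 106 in the E16 retinas, against 810 and 922 in the E8 retinas, a log2 fold change of -2.98 ± 0.22. SHH, HHIP and GLI3 were all lower in both E16 retinas.

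Wnt genes were called higher in 15 of 46 and lower in 18 of 46, or 32.6% and 39.1%. FGF genes were called higher in 10 of 26 and lower in 8 of 26, or 38.5% and 30.8%. BMP and TGF-beta genes were called higher in 14 of 40 and lower in 19 of 40, or 35% and 47.5%. Over all genes the shares were 34.7% higher and 29.2% lower, so the shares called higher in these lists were near that of all genes. WIF1, a secreted inhibitor of Wnt ligands, had 6360 and 10966 in the E16 retinas, against 190 and 489 in the E8 retinas, a log2 fold change of 4.77 ± 0.40. WNT10A, a ligand, had 474 and 509 in the E16 retinas, against 5.27 and 4.90 in the E8 retinas, a log2 fold change of 6.34 ± 0.20. RSPO1, a secreted enhancer of Wnt signalling, had 4.20 and 4.90 in the E16 retinas, against 236 and 223 in the E8 retinas, a log2 fold change of -5.38 ± 0.40. WIF1, WNT10A and RSPO1 were picked among the largest Wnt changes in each direction, so they give no direction for the list. FGF3, a ligand, had 35.7 and 55.6 in the E16 retinas, against 839 and 385 in the E8 retinas, a log2 fold change of -3.64 ± 0.43. FGF8, another ligand, had 27.3 and 51.5 in the E16 retinas, against 256 and 175 in the E8 retinas, a log2 fold change of -2.47 ± 0.41. ETV4, a transcription factor induced by FGF signalling, had 178 and 163 in the E16 retinas, against 1019 and 902 in the E8 retinas, a log2 fold change of -2.49 ± 0.20. The ligands FGF3 and FGF8 and the induced factor ETV4 were lower in both E16 retinas, but at least 4-fold changes of FGF genes were called higher for 6 and lower for 3. FGF7, a further ligand, had 65.2 and 67.8 in the E16 retinas, against 3 and 0 reads in the E8 retinas, 60.4 times with a 95% Poisson counting interval of 20.7 to 293. FGF16 had 58.9 and 53.1 in the E16 retinas, against 2 and 1 reads in the E8 retinas, 50.9 times with an interval of 17.4 to 247. FGF5 had 36.8 and 32.7 in the E16 retinas, against 1 and 2 reads in the E8 retinas, 31.6 times with an interval of 10.8 to 153. The FGF ligands named moved in both directions, as they were picked from the largest changes each way. SMAD3, which relays TGF-beta signals to the nucleus, had 696 and 781 in the E16 retinas, against 4983 and 4391 in the E8 retinas, a log2 fold change of -2.66 ± 0.13. NOG, a secreted BMP inhibitor, had 117 and 143 in the E16 retinas, against 2.93 and 8.82 in the E8 retinas, a log2 fold change of 4.39 ± 0.65. Because the E8 retinas differed, leaving out E8 replicate 1 gave NOG 3.73 and WIF1 4.09 on the log2 scale, and leaving out E8 replicate 2 gave 5.05 and 5.45.

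Retinoic acid genes were called higher in 3 of 12 and lower in 3, below the shares over all genes, and thyroid hormone genes higher in 4 of 8 and lower in 2. CYP26A1, which breaks down retinoic acid, had 180 and 208 in the E16 retinas, against 1065 and 996 in the E8 retinas, a log2 fold change of -2.41 ± 0.20. ALDH1A2, which makes it, had 206 and 160 in the E16 retinas, against 36.9 and 22.5 in the E8 retinas, a log2 fold change of 2.61 ± 0.26. DIO2, which activates thyroid hormone, had 226 and 337 in the E16 retinas, against 38.1 and 58.8 in the E8 retinas, a log2 fold change of 2.52 ± 0.28. These 3 genes did not overlap between the ages, but the same held for 82.9% of all genes. Neurotrophin and GDNF family ligands and receptors were called higher in 12 of 14 and lower in 1. NTF3, the ligand neurotrophin-3, had 1506 and 1444 in the E16 retinas, against 55.1 and 28.4 in the E8 retinas, a log2 fold change of 5.18 ± 0.27. NGFR, the low-affinity neurotrophin receptor, was the gene that fell, with 2366 and 2136 in the E16 retinas, against 10218 and 9658 in the E8 retinas, a log2 fold change of -2.14 ± 0.15.

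Chromatin and RNA-binding proteins leaned downward. Of 39 tested genes of DNA methylation and chromatin regulation, 28 were called lower, 8 at least 4-fold, and 5 were called higher, with a median of -1.09. HMGB2, a chromatin protein of dividing cells, had 1492 and 1280 in the E16 retinas, against 40377 and 32344 in the E8 retinas, a log2 fold change of -4.71 ± 0.14. DNMT3B, a de novo DNA methyltransferase, had 152 and 169 in the E16 retinas, against 3043 and 2812 in the E8 retinas, a log2 fold change of -4.18 ± 0.20. EZH2, the histone H3 lysine methyltransferase of Polycomb, had 1136 and 1020 in the E16 retinas, against 5239 and 5333 in the E8 retinas, a log2 fold change of -2.29 ± 0.11. Its paralog EZH1 moved the other way, with 1098 and 1217 in the E16 retinas, against 619 and 572 in the E8 retinas, a log2 fold change of 0.96 ± 0.20. Subunits of the BAF remodelling complex were called lower in 10 of 13 and higher in 1. ACTL6A, its subunit in neural precursors, had 1728 and 1627 in the E16 retinas, against 7289 and 5587 in the E8 retinas, a log2 fold change of -1.93 ± 0.15. The medians of -1.09 for the chromatin list and -0.89 for the BAF list were less deep than the -5.57 of the mitosis list.

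Neural splicing and RNA-binding proteins were called lower in 15 of 28 and higher in 8, and general splicing factors lower in 35 of 42 and higher in 2, with 0 changed 4-fold. PTBP1, a splicing repressor that is switched off as neurons form, had 2305 and 2391 in the E16 retinas, against 10918 and 8601 in the E8 retinas, a log2 fold change of -2.04 ± 0.13. IGF2BP1, an RNA-binding protein of embryonic tissue, had 222 and 199 in the E16 retinas, against 4053 and 3299 in the E8 retinas, a log2 fold change of -4.12 ± 0.17. RBFOX1, a splicing factor of mature neurons, had 6868 and 5532 in the E16 retinas, against 686 and 780 in the E8 retinas, a log2 fold change of 3.07 ± 0.15. A repressor of neuronal exons was therefore lower and a neuronal splicing factor higher.

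Photoreceptor genes held most of the largest rises. Of 23 tested phototransduction genes 22 were called higher, 19 at least 4-fold, and 0 lower, with a median of 6.07, or 5.44 with 4 genes of 3 or fewer reads at E8 placed at their bounds. GNGT2, the gamma subunit of the cone G protein transducin, had 38483 and 43214 in the E16 retinas, against 577 and 635 in the E8 retinas, a log2 fold change of 6.07 ± 0.17. PDE6H, an inhibitory subunit of the cone phosphodiesterase, had 30135 and 29761 in the E16 retinas, against 172 and 23.5 in the E8 retinas, a log2 fold change of 8.84 ± 0.69. The E16 retinas lay close together, while for PDE6H the E8 retinas stood apart, and its log2 fold change was 10.25 if E8 replicate 1 was left out and 7.43 if E8 replicate 2 was. PDE6C, the catalytic subunit of that enzyme, had 4425 and 4852 in the E16 retinas, against 49.2 and 28.4 in the E8 retinas, a log2 fold change of 6.91 ± 0.34. CNGB3, a subunit of the cone channel opened by cyclic GMP, had 4191 and 4066 in the E16 retinas, against 31.1 and 30.4 in the E8 retinas, a log2 fold change of 7.02 ± 0.21. ARR3, the cone arrestin that ends the light response, had 14477 and 11971 in the E16 retinas, against 3.52 and 12.7 in the E8 retinas, a log2 fold change of 10.71 ± 0.46, with a range of 9.90 to 11.51 when an E8 retina was left out. SAG, the rod arrestin, had 2872 and 2686 in the E16 retinas, against 40.4 and 39.2 in the E8 retinas, a log2 fold change of 6.09 ± 0.22. These 6 genes were thus all higher in both E16 retinas, with adjusted p-values from 5.79e-08 for GNGT2 to 9.64e-06 for PDE6H by limma.

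Some phototransduction genes were at the limit of detection at E8. GUCA1A, a calcium sensor that restores cyclic GMP, had 1835 and 3035 normalized counts in the E16 retinas and 0 reads in both E8 retinas. Against 3 reads in the shallower E8 library, which is 2.94 normalized counts, it was at least 828-fold higher. GNAT1, the alpha subunit of rod transducin, had 946 and 945 in the E16 retinas, against 1 read in each E8 retina, 1289 times the E8 level with a 95% Poisson counting interval of 357 to 10643. GUCA1C, a further sensor of that family, had 716 and 824.4 in the E16 retinas, against 2 and 0 reads in the E8 retinas, 1050 times with an interval of 291 to 8671. These intervals cover counting error only. GNB1, a beta subunit that many tissues use, was the gene of the list that was not called, with 44975 and 43198 in the E16 retinas, against 37988 and 38018 in the E8 retinas.

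Genes of the outer segment, the matrix around it and the photoreceptor cilium were called higher in 20 of 22, 15 at least 4-fold, and lower in 2, with a median of 3.91. PRPH2, peripherin, which shapes the disc rims, had 3001 and 2258 in the E16 retinas, against 3 reads in each E8 retina, 1195 times with a 95% Poisson counting interval of 549 to 3257. CDHR1, a cadherin at the base of the outer segment, had 8058 and 7067 in the E16 retinas, against 21.7 and 66.6 in the E8 retinas, a log2 fold change of 7.59 ± 0.49. IMPG1, a proteoglycan of the matrix, had 21634 and 19996 in the E16 retinas, against 330 and 443 in the E8 retinas, a log2 fold change of 5.76 ± 0.17. RBP3, which carries retinoids between photoreceptors and pigment epithelium, was already present at E8, with 21755 and 16932 in the E16 retinas, against 2423 and 3592 in the E8 retinas, a log2 fold change of 2.70 ± 0.58. The 2 genes called lower were CRB1 and RPGR. CRB1, a polarity protein of the outer limiting membrane, had 1265 and 841 in the E16 retinas, against 3177 and 2990 in the E8 retinas, a log2 fold change of -1.58 ± 0.30. RPGR, a protein of the connecting cilium, had 321 and 252 in the E16 retinas, against 470 and 398 in the E8 retinas, a log2 fold change of -0.60 ± 0.20, whose call was lost without E16 replicate 2 (limma adjusted p = 0.184), without E8 replicate 1 (0.114) and in a fit of the 4 libraries compared (0.0605). Leaving out E8 replicate 1 gave CDHR1 6.80 on the log2 scale, and leaving out E8 replicate 2 gave 8.38.

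Transcription factors of photoreceptors were called higher in 6 of 12 and lower in 0. Of the 2 members kept apart, 1 was called higher and 1 lower. MAFA, a factor of the large MAF family, had 550 and 459 in the E16 retinas, against 4.69 and 5.88 in the E8 retinas, a log2 fold change of 6.33 ± 0.27. NR2E3, a nuclear receptor of rod fate in mammals, had 3738 and 2924 in the E16 retinas, against 734 and 785 in the E8 retinas, a log2 fold change of 2.12 ± 0.43. ESRRB, another nuclear receptor of the list, had 1040 and 1129 in the E16 retinas, against 241 and 187 in the E8 retinas, a log2 fold change of 2.34 ± 0.34. OTX2 and NEUROD1, given above, were of this list too and were not called, and the median of the list was 0.55, against 6.07 for phototransduction. Over the 3 ages in order, mean NR2E3 was 759.6 at E8, 3331 at E16 and 822 at E18.

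**Figure D3:**
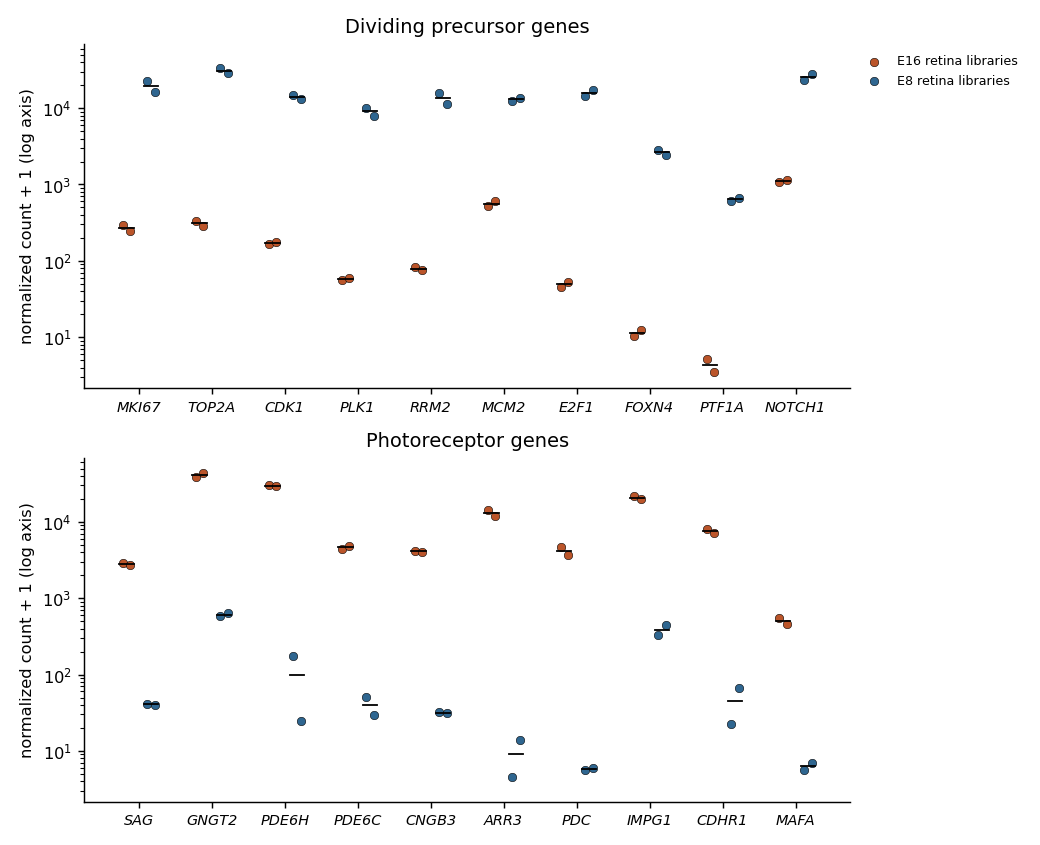
Normalized count + 1 on a log axis in each library for 10 genes shown for dividing precursors (above) and 10 photoreceptor genes (below). Points are libraries, E16 left of E8, and lines are group means. PTF1A, in the upper panel, is counted in the text with the amacrine and horizontal cell factors. For every gene shown, both E16 points lie on the same side of both E8 points, below them in the upper panel and above them in the lower panel. Some of these genes were picked after their values were seen, and such separation held for 82.9% of all genes.

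Bipolar cells connect photoreceptors to ganglion cells. Their genes were called higher in 9 of 13 and lower in 0, 6 at least 4-fold, with a median of 1.41. The 1 member kept apart was called lower. LRIT3, a protein that gathers the light-response channel of ON bipolar cells, had 814 and 1113 in the E16 retinas, against 5.27 and 3.92 in the E8 retinas, a log2 fold change of 7.42 ± 0.61. NYX, nyctalopin of the same complex, had 665 and 757 in the E16 retinas, against 4.69 and 12.7 in the E8 retinas, a log2 fold change of 6.33 ± 0.44. TRPM1, the channel itself, had 2173 and 2492 in the E16 retinas, against 2117 and 1792 in the E8 retinas, a log2 fold change of 0.26 ± 0.19 that was not called. VSX1, a homeobox factor of bipolar cells, likewise had 15783 and 14213 in the E16 retinas, against 19693 and 16883 in the E8 retinas, and was not called. GRIK1, a kainate receptor of OFF bipolar cells, had 15889 and 17465 in the E16 retinas, against 2135 and 2332 in the E8 retinas, a log2 fold change of 2.90 ± 0.25. LHX3, a LIM homeobox factor, had 2785 and 3073 in the E16 retinas, against 320 and 682 in the E8 retinas, a log2 fold change of 2.64 ± 0.48. A factor and a channel of bipolar cells were thus not called, while NYX and LRIT3, which gather that channel, were far higher at E16, NYX by 5.69 to 6.97 on the log2 scale when an E8 retina was left out.

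Amacrine and horizontal cells shape signals sideways. Their transcription factors were called higher in 5 of 15 and lower in 2, or 33.3% higher and 13.3% lower, against 34.7% and 29.2% over all genes, and the count of 5 fell to between 2 and 3 without E16 replicate 1, without E16 replicate 2 or without E8 replicate 1. PTF1A, given above, had the deepest fall of the list at -7.23 on the log2 scale, the 1 fall of at least 4-fold. TFAP2B, a factor of amacrine cells, had 2851 and 2648 in the E16 retinas, against 1665 and 2118 in the E8 retinas, a log2 fold change of 0.55 ± 0.14, whose call was lost without E16 replicate 1 (limma adjusted p = 0.0561). PROX1 of horizontal cells had 2943 and 3088 in the E16 retinas, against 3219 and 3605 in the E8 retinas, and was not called. The enzymes and transporters of their transmitters moved more, with 8 of 13 called higher, each at least 4-fold, and 1 called lower. SLC5A7, which takes up choline in cholinergic cells, had 533 and 443 in the E16 retinas, against 3.52 and 3.92 in the E8 retinas, a log2 fold change of 6.69 ± 0.28. DDC, an enzyme shared by dopamine, serotonin and melatonin synthesis, had 680 and 570 in the E16 retinas, against 4.10 and 19.6 in the E8 retinas, a log2 fold change of 5.93 ± 0.63, with a range of 4.92 to 6.93 when an E8 retina was left out. SLC5A7 and DDC were thus each higher at E16. TH, the enzyme that starts dopamine synthesis, had 7.36 and 4.90 in the E16 retinas and 0 reads in both E8 retinas, at least 2.09-fold higher. CHAT, which makes acetylcholine, had 128 and 84.2 in the E16 retinas, against 61.5 and 83.3 in the E8 retinas, and was not called. Neuropeptide and secretory granule genes were called higher in 17 of 20, 14 at least 4-fold, and lower in 1. NTS, neurotensin, had 2451 and 2893 in the E16 retinas, against 42.8 and 40.2 in the E8 retinas, a log2 fold change of 5.97 ± 0.42. CHGA, chromogranin A of dense-core granules, had 40237 and 34070 in the E16 retinas, against 3316 and 2687 in the E8 retinas, a log2 fold change of 3.63 ± 0.28. CHGB was the gene called lower, with 2960 and 2375 in the E16 retinas, against 7011 and 6753 in the E8 retinas, a log2 fold change of -1.38 ± 0.14.

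Ganglion cells, whose axons form the optic nerve, are among the earliest neurons of the retina. Their list was called higher in 6 of 13, 4 at least 4-fold, and lower in 2, with 0 at least 4-fold. Those shares were 46.2% higher and 15.4% lower, against 34.7% and 29.2% over all genes. The lowest log2 fold change in the list was -1.33, and the ganglion cell genes named below leave out those called lower. NEFH, the heavy neurofilament, had 458 and 440 in the E16 retinas, against 18.7 and 22.5 in the E8 retinas, a log2 fold change of 4.38 ± 0.37. NEFM, the medium neurofilament, had 7958 and 8977 in the E16 retinas, against 5256 and 4331 in the E8 retinas, and was not called, although edgeR (adjusted p = 0.0333), DESeq2 (0.00939) and fits of the retina libraries alone called it higher. SLC17A6, the vesicular glutamate transporter of ganglion cells, had 4026 and 3955 in the E16 retinas, against 820 and 479 in the E8 retinas, a log2 fold change of 2.67 ± 0.63. EOMES, a T-box factor of ganglion cells, had 663 and 536 in the E16 retinas, against 117 and 112 in the E8 retinas, a log2 fold change of 2.38 ± 0.41. Cytoskeletal genes of growing neurons were called higher in 10 of 28, or 6 without E16 replicate 1, and lower in 6, with a median of 0.02. DCX, doublecortin of young neurons, had 811 and 744 in the E16 retinas, against 1823 and 1412 in the E8 retinas, a log2 fold change of -1.05 ± 0.18. INA, a neurofilament partner, had 5317 and 4694 in the E16 retinas, against 509 and 735 in the E8 retinas, a log2 fold change of 3.03 ± 0.50. Genes of the growing neurite thus had no common direction, with 35.7% called higher and 21.4% lower, against 34.7% and 29.2% over all genes.

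Müller glia, the radial glia that span the retina, had genes called higher in 13 of 16, 7 at least 4-fold, and lower in 2, with a median of 1.80. RLBP1, a retinaldehyde carrier, had 9649 and 10896 in the E16 retinas, against 418 and 472 in the E8 retinas, a log2 fold change of 4.53 ± 0.17. AQP4, a water channel, had 618 and 580 in the E16 retinas, against 2.93 and 2.94 in the E8 retinas, a log2 fold change of 7.25 ± 0.77. GLUL, glutamine synthetase, had 3656 and 3197 in the E16 retinas, against 948 and 1151 in the E8 retinas, a log2 fold change of 1.71 ± 0.24. Its mean over the ages in order was 1049 at E8, 3426 at E16 and 36836 at E18, so most of its rise lay after E16. SOX9, shared with precursors, was lower as given above, and SOX8 had 800 and 885 in the E16 retinas, against 906 and 850 in the E8 retinas, with groups that overlapped.

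Most tested synaptic genes were called higher. Synaptic vesicle and active zone genes were called higher in 27 of 35, 17 at least 4-fold, and lower in 1, with a median of 1.98. SNAP25, which drives vesicle fusion, had 42943 and 41371 in the E16 retinas, against 3306 and 5710 in the E8 retinas, a log2 fold change of 3.28 ± 0.57. STX3, the syntaxin of ribbon synapses, had 8177 and 8958 in the E16 retinas, against 167 and 330 in the E8 retinas, a log2 fold change of 5.18 ± 0.31. CPLX3, a complexin of ribbon synapses, had 6776 and 7198 in the E16 retinas, against 221 and 394 in the E8 retinas, a log2 fold change of 4.56 ± 0.24. SNAP25, STX3 and CPLX3 were thus higher in both E16 retinas. UNC13C, a vesicle priming protein, was the gene called lower, with 3507 and 3227 in the E16 retinas, against 4450 and 4679 in the E8 retinas, a log2 fold change of -0.44 ± 0.12, whose call was lost without E16 replicate 2 (limma adjusted p = 0.0890). Postsynaptic scaffold and adhesion genes were called higher in 24 of 29, 10 at least 4-fold, and lower in 2. 

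Most tested transmitter receptor genes were called higher. Glutamate receptor genes were called higher in 20 of 22, 13 at least 4-fold, and lower in 0, with a median of 2.91. The 1 member kept apart was called lower. GRIN1, the obligate NMDA receptor subunit, had 12350 and 11516 in the E16 retinas, against 237 and 365 in the E8 retinas, a log2 fold change of 5.34 ± 0.51. GRM8, a metabotropic receptor, had 3068 and 2709 in the E16 retinas, against 26.4 and 17.6 in the E8 retinas, a log2 fold change of 6.996 ± 0.38. GRIA2, the AMPA receptor subunit that limits calcium entry, rose less, with 6497 and 6201 in the E16 retinas, against 1880 and 2572 in the E8 retinas, a log2 fold change of 1.53 ± 0.20. GABA and glycine receptor genes were called higher in 23 of 24, 21 at least 4-fold, and lower in 0, with a median of 3.98. GABRA6, an alpha subunit of the GABA receptor, had 2964 and 3012 in the E16 retinas, against 11.7 and 73.5 in the E8 retinas, a log2 fold change of 6.60 ± 0.65, with a range of 5.33 to 7.88 when an E8 retina was left out. GLRA3, a glycine receptor subunit, had 4267 and 3936 in the E16 retinas, against 67.96 and 99.96 in the E8 retinas, a log2 fold change of 5.62 ± 0.43. The receptor gene of the list that was not called was GABRR2, of bipolar cell GABA-C receptors, with 490 and 467 in the E16 retinas, against 185 and 431 in the E8 retinas. Acetylcholine, dopamine and serotonin receptor genes were called higher in 18 of 29, 14 at least 4-fold, and lower in 1. DRD4, the dopamine receptor of photoreceptors, had 349 and 391 in the E16 retinas, against 2.93 and 3.92 in the E8 retinas, a log2 fold change of 6.40 ± 0.26. DRD5, a dopamine receptor of the D1 class, had 1337 and 1194 in the E16 retinas, against 2.93 and 7.84 in the E8 retinas, a log2 fold change of 7.74 ± 0.37.

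Ion channels followed. Potassium channel genes were called higher in 50 of 66, 27 at least 4-fold, and lower in 5, 2 of them at least 4-fold, with a median of 1.62. KCNMB2, a subunit of calcium-activated channels, had 704 and 673 in the E16 retinas, against 35.7 and 15.7 in the E8 retinas, a log2 fold change of 4.80 ± 0.34. KCNT2, a sodium-activated channel, was among those called lower, with 430 and 355 in the E16 retinas, against 1890 and 2042 in the E8 retinas, a log2 fold change of -2.33 ± 0.21. Sodium, calcium and HCN channel genes were called higher in 24 of 31, 15 at least 4-fold, and lower in 1. CACNA2D4, a calcium channel subunit of photoreceptor synapses, had 4767 and 5258 in the E16 retinas, against 15.2 and 68.6 in the E8 retinas, a log2 fold change of 7.22 ± 0.55, with a range of 6.17 to 8.27 when an E8 retina was left out. SCN2B, a sodium channel subunit, had 842 and 1011 in the E16 retinas, against 7.62 and 16.7 in the E8 retinas, a log2 fold change of 6.23 ± 0.34. Both CACNA2D4 and SCN2B were higher in both E16 retinas. Chloride channels and transporters were called higher in 15 of 31 and lower in 6. SLC12A5, the chloride exporter KCC2 that makes GABA inhibitory, had 1314 and 1239 in the E16 retinas, against 75.6 and 49.98 in the E8 retinas, a log2 fold change of 4.35 ± 0.22. Gap junction and claudin genes were called higher in 11 of 26 and lower in 3. GJD2, connexin 36 of neuronal gap junctions, had 7277 and 7326 in the E16 retinas, against 775 and 658 in the E8 retinas, a log2 fold change of 3.35 ± 0.35. GJA1, connexin 43, went the other way, with 70.4 and 46.6 in the E16 retinas, against 4149 and 2789 in the E8 retinas, a log2 fold change of -5.87 ± 0.29.

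Adhesion and guidance genes were called in both directions within a family. Over all genes the shares were 34.7% higher and 29.2% lower. Cadherins and protocadherins were called higher in 21 of 41, 14 at least 4-fold, and lower in 10, 3 at least 4-fold. Those shares were 51.2% higher and 24.4% lower. CDH2, N-cadherin of the neural epithelium, had 7077 and 5576 in the E16 retinas, against 21642 and 25016 in the E8 retinas, a log2 fold change of -1.89 ± 0.15. CELSR1, of planar polarity, had 1089 and 1138 in the E16 retinas, against 9350 and 11399 in the E8 retinas, a log2 fold change of -3.21 ± 0.15. CDH13, a cadherin anchored in the membrane by a lipid, had 1618 and 1518 in the E16 retinas, against 7.62 and 20.6 in the E8 retinas, a log2 fold change of 6.85 ± 0.36, with a range of 6.18 to 7.51 when an E8 retina was left out. CDH2 and CELSR1 were thus lower and CDH13 higher. Axon guidance genes were called higher in 28 of 56, 16 at least 4-fold, and lower in 13, 3 at least 4-fold. Those shares were 50% higher and 23.2% lower, so both lists were called lower less often than all genes. EPHB3, a receptor for ephrins, had 281 and 226 in the E16 retinas, against 2606 and 1557 in the E8 retinas, a log2 fold change of -3.00 ± 0.24. NTN4, a netrin, had 2250 and 2511 in the E16 retinas, against 120 and 110 in the E8 retinas, a log2 fold change of 4.36 ± 0.13. SEMA3E, a secreted semaphorin, had 946 and 1121 in the E16 retinas, against 0 and 1 read in the E8 retinas, 2819 times with a 95% Poisson counting interval of 506 to 111325.

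Metabolic genes showed no common direction. Over all genes, the shares called were 34.7% higher and 29.2% lower. Glycolysis and lactate genes were called higher in 13 of 22 and lower in 3, or 59.1% and 13.6%. Of them 1 was at least 4-fold higher and 1 at least 4-fold lower. PFKFB4, which sets the level of a glycolysis activator, was the lower of these, with 763 and 711 in the E16 retinas, against 3295 and 3435 in the E8 retinas, a log2 fold change of -2.19 ± 0.14. ENO2, the enolase of neurons, was the higher, with 32005 and 32680 in the E16 retinas, against 958 and 1007 in the E8 retinas, a log2 fold change of 5.04 ± 0.11. GAPDH, often taken as a reference gene, had 526159 and 578466 in the E16 retinas, against 159641 and 188559 in the E8 retinas, a log2 fold change of 1.67 ± 0.21. SLC2A1, the glucose transporter, was lower, with 6743 and 6909 in the E16 retinas, against 15471 and 14279 in the E8 retinas, a log2 fold change of -1.12 ± 0.11. Nuclear genes of oxidative phosphorylation were called higher in 10 of 47 and lower in 6, or 21.3% and 12.8%. Genes of the tricarboxylic acid cycle were called higher in 1 of 13 and lower in 1, or 7.69% each way. Both lists were called less often than all genes, with 0 changed 4-fold in either. Their counts called higher were not stable when 1 retina was left out. Cholesterol synthesis genes were called lower in 10 of 14 and higher in 3, or 71.4% and 21.4%. Fatty acid synthesis and modification genes were called lower in 10 of 17 and higher in 2, or 58.8% and 11.8%. SQLE, squalene epoxidase, had 1133 and 1211 in the E16 retinas, against 5957 and 5010 in the E8 retinas, a log2 fold change of -2.22 ± 0.12. Ribosome biogenesis genes were called lower in 19 of 29, or 65.5%, and higher in 1. Proteasome and chaperonin genes were called lower in 25 of 37, or 67.6%, and higher in 0. Ribosomal protein genes were called lower in 15 of 61 and higher in 4, a share lower than that of all genes, and that count of 15 was between 7 and 9 without any 1 of the retinas and 32 in fits of the retina libraries alone.

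The retina of birds keeps its own clock, and photoreceptors make melatonin at night. Clock and melatonin genes were called higher in 8 of 15, 6 at least 4-fold, and lower in 2. AANAT, the enzyme that sets melatonin output, had 689.5 and 599.7 in the E16 retinas, against 4.10 and 5.88 in the E8 retinas, a log2 fold change of 6.76 ± 0.34. ASMT, which completes melatonin, had 1186 and 1221 in the E16 retinas, against 5.27 and 3.92 in the E8 retinas, a log2 fold change of 7.76 ± 0.32. TPH1, which starts the path from tryptophan, had 603 and 744 in the E16 retinas, against 13.5 and 12.7 in the E8 retinas, a log2 fold change of 5.57 ± 0.26. DDC, which acts after TPH1 in this path, was higher as given above, so the 4 enzymes listed were each higher in both E16 retinas. Core clock genes moved in both directions. NPAS2, a partner of ARNTL in the clock, had 1125 and 1216 in the E16 retinas, against 18.2 and 23.5 in the E8 retinas, a log2 fold change of 5.75 ± 0.17. CRY2, a clock repressor, had 6464 and 7339 in the E16 retinas, against 3099 and 4299 in the E8 retinas, a log2 fold change of 0.92 ± 0.16, while CLOCK, ARNTL and CRY1 were not called, although CRY1 was called lower without E8 replicate 1 (limma adjusted p = 0.0236). PER2, another repressor, was called lower, as was PER3, and had 1451 and 1410 in the E16 retinas, against 2722 and 2953 in the E8 retinas, a log2 fold change of -0.99 ± 0.11. The hour of harvest is not given in the sources used here, and its part in the clock genes was not tested.

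**Figure D4:**
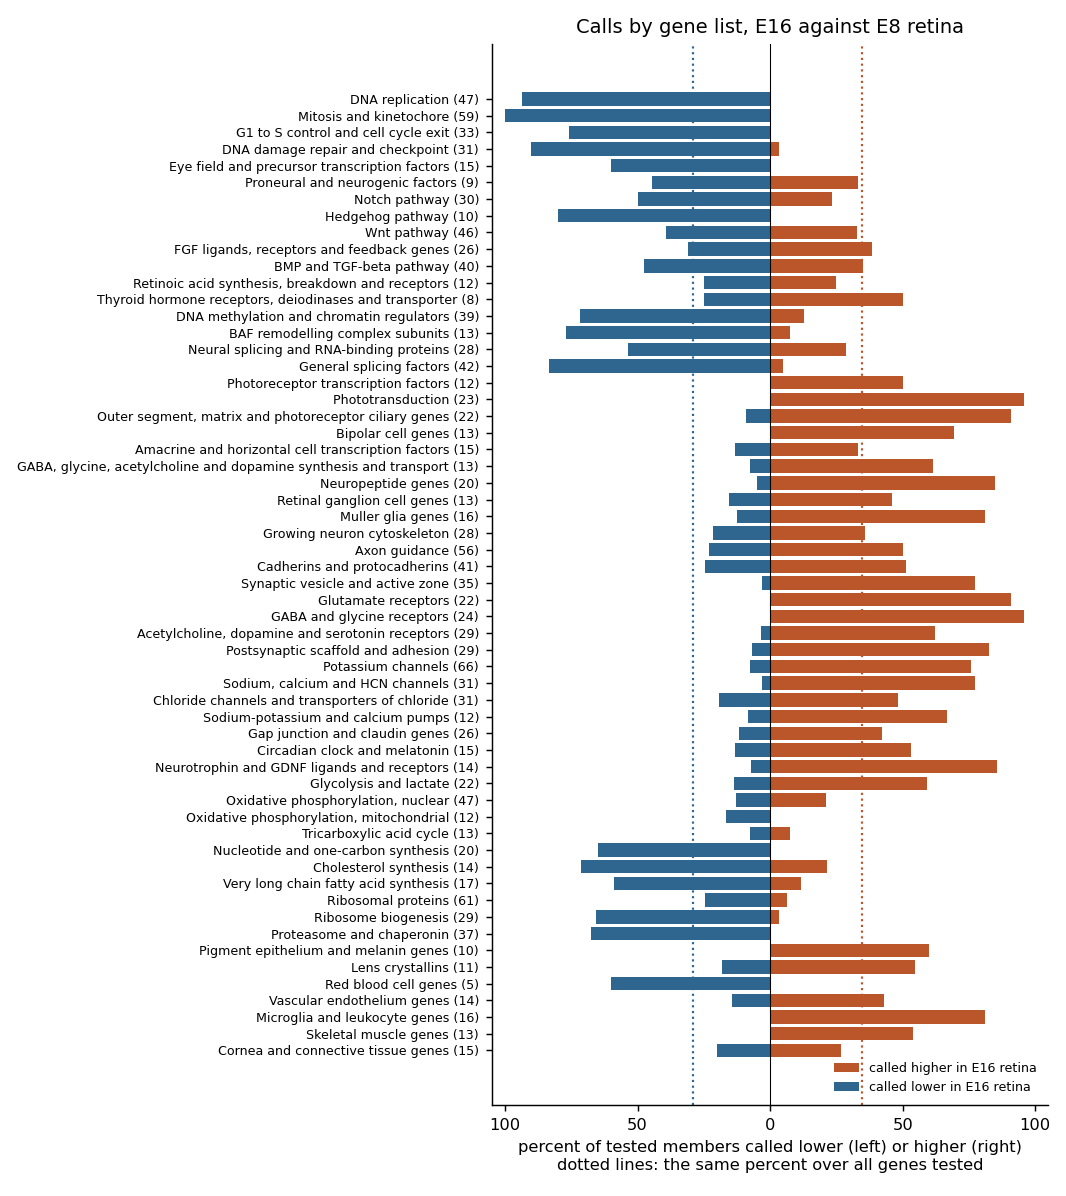
Percent of the tested members of each gene list called higher in E16 retina (right, orange) or lower (left, blue), with the number tested in brackets; dotted lines mark 34.7% and 29.2%, the same shares over all 12543 genes. Bars for mitosis and DNA replication reach far to the left, and those for phototransduction, receptors and synaptic genes far to the right.

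Over all genes, 34.7% were called higher and 29.2% lower. Lists used as markers of cells outside the neural retina held called genes too, though their genes need not be exclusive to such cells. RGR, for example, is in both the pigment epithelium and the Müller glia lists. Microglia and leukocyte genes were called higher in 13 of 16, 9 at least 4-fold, and their summed normalized counts were 1624 and 1708 in the E16 retinas, against 588 and 321 in the E8 retinas. CSF1R, the receptor that microglia need, had 630 and 563 in the E16 retinas, against 36.3 in both E8 retinas, a log2 fold change of 4.00 ± 0.24. Pigment epithelium and melanin genes were called higher in 6 of 10 and lower in 0, and summed to 3557 and 3077 in the E16 retinas, against 791 and 1420 in the E8 retinas, while the defining genes RPE65 and TYR were not called, although a fit of the 4 libraries compared called TYR lower (limma adjusted p = 0.0439). Skeletal muscle genes were called higher in 7 of 13 and summed to 326 and 419 in the E16 retinas, against 92.0 and 76.4 in the E8 retinas. Lens crystallin genes were called higher in 6 of 11 and lower in 2, and summed to 1237 and 1346 in the E16 retinas, against 185 and 204 in the E8 retinas. CRYBB2 made most of that sum, with 985 and 1023 in the E16 retinas, against 10.5 and 11.8 in the E8 retinas. Vascular endothelium genes were called higher in 6 of 14 and lower in 2, and summed to 5732 and 5274 in the E16 retinas, against 3363 and 2722 in the E8 retinas. Cornea and connective tissue genes were called higher in 4 of 15 and lower in 3, or 26.7% and 20%, both below the shares over all genes. They summed to 4894 and 4696 in the E16 retinas, against 9067 and 13058 in the E8 retinas. Red blood cell genes were called lower in 3 of 5. They summed to 13.7 and 27.0 in the E16 retinas, against 84.4 and 69.6 in the E8 retinas. The globins HBAD and HBAA were listed at 0 in all 4. Of the 9 list members with a row, 3 lay in the stretch of rows nearly all at 0, so these zeros are not read as absence. The part of such cells in the results above was not tested.

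The rows kept apart behaved differently from the rest. Of the chromosome Z rows, 644 were tested, of which 135 were called higher and 334 lower, or 51.9%, and their median log2 fold change was -0.59. Their median minus that of the other genes was -0.66, and this shift ran from -0.70 to -0.62 over the 4 pairings of an E16 with an E8 retina. Chromosome Z rows took 3.56% and 3.48% of the reads of the E16 retinas, against 4.86% and 4.79% of those of the E8 retinas. The 16 rows before them summed to 7173 and 9048 reads in the E16 retinas, against 23 and 17 reads in the E8 retinas. All 7 of these rows that were tested were called higher. ENSGALG00000014441 had 1386 and 1274 normalized counts in the E16 retinas and 0 reads in both E8 retinas, at least 452-fold higher. ENSGALG00000009227 had 834 and 895 in the E16 retinas and 0 reads in both E8 retinas, at least 294-fold higher. ENSGALG00000026991 had 2311 and 2325 in the E16 retinas, against 1 and 0 reads in the E8 retinas, 6321 times with a 95% Poisson counting interval of 1135 to 249683. ENSGALG00000014184 was the tested row of the 16 with the most E8 reads, with 1323 and 1290 in the E16 retinas, against 5.86 and 7.84 in the E8 retinas, a log2 fold change of 7.39 ± 0.19. None of the 16 rows matched a gene of the GRCg7b annotation by name, so no chromosome is given to them. Summed reads of the 16 rows were 7160 and 11552 in the E18 retinas and 1518 and 2510 in the E18 corneas, so both E8 retinas stood apart from the other 6 libraries. The age of the embryos and their sex cannot be told apart for any row kept apart.

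Genes of the same programmes sit on chromosome Z. Those named here were picked as the largest called rises and falls among its rows. Their size follows from that choice and is not set against the shift of the chromosome. SMC2, a condensin subunit that compacts mitotic chromosomes, had 56.8 and 48.2 in the E16 retinas, against 27791 and 21311 in the E8 retinas, a log2 fold change of -8.83 ± 0.23. MELK, a kinase of dividing cells, had 3.15 and 4.09 in the E16 retinas, against 1982 and 1392 in the E8 retinas, a log2 fold change of -8.50 ± 0.31. CPLX4, a complexin of photoreceptor ribbon synapses, had 1172 and 1465 in the E16 retinas, against 1 read in each E8 retina, 1798 times with a 95% Poisson counting interval of 498 to 14845. SKOR2, a transcriptional corepressor, had 359 and 435 in the E16 retinas, against 2.34 and 0 in the E8 retinas, and its log2 fold change was 6.89 to 8.63 without 1 of the E8 retinas. The 5 chromosome Z members of the mitosis and replication lists were all called lower, as were most of their other members.

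**Figure D5:**
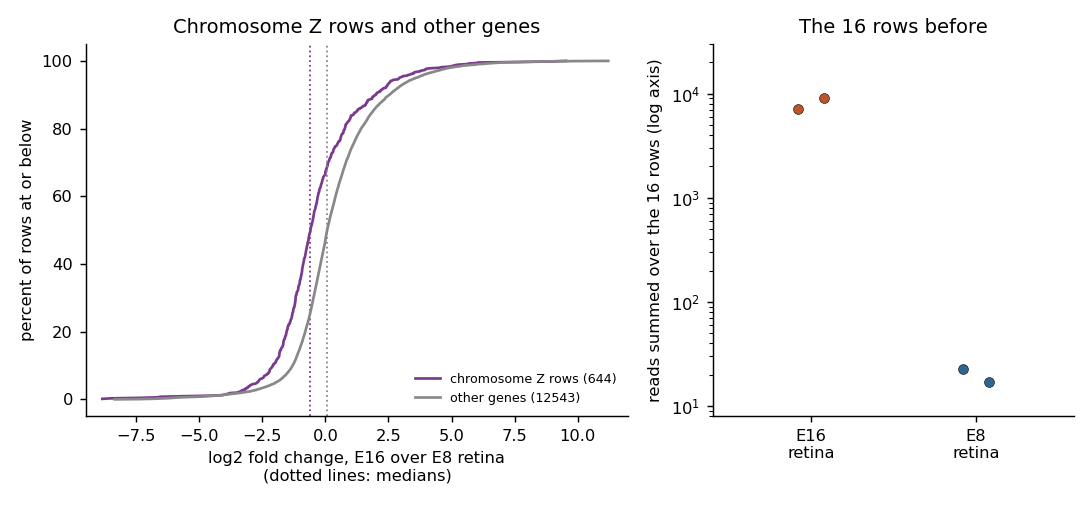
Left, percent of rows at or below each log2 fold change of E16 over E8 retina, for 644 chromosome Z rows and 12543 other genes, with dotted lines at the medians of -0.59 and 0.07. Right, reads summed over the 16 rows before them on a log axis, 7173 and 9048 in the E16 retinas and 23 and 17 in the E8 retinas, each point a library.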

How the data were processed

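RNA from whole retinas was sequenced by the study as stranded poly(A) libraries. Per the labels and the study's methods, the authors used STAR 2.5.1b for alignment to the galGal4 build, featureCounts 1.5.0 for reads per gene and DESeq2 1.6.2 for the size factors. The deposited values are a signal, the normalized count, which is reads divided by a size factor per library. The annotation release and the use of strand in counting are not given in the sources used here, so overlapping, antisense and near-identical genes are uncertain.

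All values gave whole reads (100% within 0.01) once multiplied by the size factor of their library. Genes kept by edgeR's filterByExpr with a minimum count of 10 on those reads were fitted with limma 3.58.1 in R 4.3.3 on log2(normalized count + 1), over all 8 libraries with 1 term per group and a mean-variance trend. Genes were called at a Benjamini-Hochberg adjusted p under 0.05. edgeR 4.0.16 and DESeq2 1.42.0 on the recovered reads, other scalings, pseudocounts, filters and sets of libraries were alternatives. In simulated data for this comparison limma recovered 80 of 100 genes changed 2-fold and 100 of 100 changed 4-fold among 13000 genes, and called 6 unchanged genes. That simulation changed few genes and no gene of low mean, and it gave all groups the same fixed spread. In the real data far more genes were called and the E8 retinas varied more, so these counts do not measure the error of the calls reported.

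The genes named were the 12 largest called rises and falls, from each list the leading members and those with the largest called changes (any member in lists of up to 20), and the largest changes and all 16 rows of those kept apart. The members and lists were chosen with earlier results of these data known. Ratios with a Poisson interval have a 95% level and cover counting error only, and 3 reads stood for the limit of detection. Chromosome Z was checked by name against GRCg7b, where 600 of 602 matched rows lay on Z, as did 6 of 11928 other matched rows. The 21 rows that hold calendar dates in place of gene names were not named. Some genes are not reported here.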

Additional observations from a re-analysis of the deposited data

How the results depend on the processing

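Over 17 alternatives, the count of called genes outside the rows kept apart ran from 6487 to 8304, against 8019 as reported, and the share called higher from 52.9% to 55.7%. Leaving out 1 retina gave 6487 to 7641 calls. The replicate block, with the replicate number as a term, gave 7941 calls, 4333 higher and 3608 lower. Differences between replicates correlated at r = -0.0114 between E16 and E8 over 13194 genes, so no pairing by replicate number was seen across genes. Whether retinas of the same number shared a batch was not tested. The chromosome Z shift of -0.66 was -0.59 with a pseudocount of 10, -0.62 with no gene filter, -0.69 with a minimum count of 50, and -0.69 to -0.64 without 1 retina, and the cause was not tested. For each of 70 gene lists, the count in the direction with more calls was compared (higher where equal), and the other direction was not. That count stayed within 1.5 times under all 17 alternatives for 62 lists. The 8 that did not were amacrine and horizontal cell factors, neurite cytoskeleton, intraflagellar transport, both oxidative phosphorylation lists, the tricarboxylic acid cycle, ribosomal proteins and red blood cell genes. No call of a named gene reversed. With 2 retinas per age no exact permutation test of a single gene can go below 0.333, so the calls rest on the pooled spread. A search of promoters for motifs was not run.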

Other observations

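Myelin and oligodendrocyte genes were called higher in 4 of 8, each at least 4-fold, and lower in 0. SOX10, a factor of oligodendrocytes, had 277 and 311 normalized counts in the E16 retinas, against 4.10 and 3.92 in the E8 retinas, a log2 fold change of 5.88 ± 0.23. MBP, myelin basic protein, had 1619 and 2641 in the E16 retinas, against 219 and 218 in the E8 retinas, a log2 fold change of 3.24 ± 0.54. Each of these genes was higher in both E16 retinas. SOX factors, a list that holds SOX10, were called lower in 5 of 10 and higher in 2. SOX11, a factor of precursors and young neurons, was among the lower ones, with 153 and 131 in the E16 retinas, against 1550 and 1589 in the E8 retinas, a log2 fold change of -3.46 ± 0.34. Forkhead factors were called lower in 11 of 17 and higher in 0.

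Collagens were called higher in 13 of 36, 6 at least 4-fold, and lower in 16, 7 at least 4-fold. Those shares were 36.1% higher and 44.4% lower, against 34.7% and 29.2% over all genes. The share called higher was thus near that of all genes. COL4A6, a basement membrane collagen, had 173 and 236 in the E16 retinas, against 3832 and 3882 in the E8 retinas, a log2 fold change of -4.25 ± 0.20. COL4A5, its partner in that network, had 168 and 192 in the E16 retinas, against 2525 and 2234 in the E8 retinas, a log2 fold change of -3.72 ± 0.17. Cell death genes were called higher in 4 of 15 and lower in 6, or 26.7% and 40%, against the same shares over all genes. BCL2, which protects cells from death, had 287 and 264 in the E16 retinas, against 1979 and 1694 in the E8 retinas, a log2 fold change of -2.73 ± 0.18. BCL2L1, a protein of the same action, had 4843 and 4558 in the E16 retinas, against 2085 and 2689 in the E8 retinas, a log2 fold change of 0.99 ± 0.15. SPARCL1 and FABP7 were chosen after their values were seen. SPARCL1, a secreted matrix protein, had 87990 and 88613 in the E16 retinas, against 762 and 597 in the E8 retinas, a log2 fold change of 7.03 ± 0.13. FABP7, a fatty acid carrier of radial glia, had 4720 and 3652 in the E16 retinas, against 138655 and 126172 in the E8 retinas, a log2 fold change of -4.99 ± 0.42.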
